A study of Mus musculus with 17 samples.

Results

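The nuclear genes that encode the mitochondrial respiratory chain were followed in sorted mouse β cells. Members were picked by symbol, as genes named *Nduf*, *Sdha* to *Sdhd*, *Uqcr*, *Cox4* to *Cox8* or *Atp5* that had a protein-coding transcript and were not marked as pseudogenes. The rule found 96 gene IDs among the 55357 in the deposited files, under 95 symbols because *Atp5o* has 2 IDs. Another 18 symbols that fit the pattern were not members, most of them pseudogenes marked -ps. By role, 38 members are subunits of complex I, 8 are *Ndufaf* assembly factors of complex I, 4 are subunits of complex II, 8 of complex III, 20 of complex IV and 18 of complex V. *Ndufa4*, *Ndufa4l2* and *Cox7a2l* were placed with complex IV.

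The respiratory chain passes electrons from nutrients to oxygen. Complexes I and II take them from NADH and succinate, complex III hands them to cytochrome c and complex IV reduces oxygen, while complex V (ATP synthase) uses the proton gradient to make ATP. In β cells, ATP made from glucose closes potassium channels and sets off insulin release, so that the chain links blood glucose to secretion.

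The study asked how β cells respond to long exposure to high glucose and what the RNA-binding protein PCBP2 contributes. By the study's text, islets of male C57BL/6 mice first recovered for days in medium with a glucose level between 2.8 and 16.7 mM. They were then kept for 72 h in 2.8 or 16.7 mM glucose and dispersed, after which live tdTomato-positive β cells were sorted and their polyA RNA was sequenced. Libraries were made with the Illumina Ultra Low Input RNA kit, whose strand setting is not stated. The labels do not say from how many mice a replicate came, so that p-values measure the spread between samples.

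Control β cells came from Tdtomato mice, labelled WT, which by the study's text also carry the Cre driver. Knockout cells, written *Pcbp2* βKO, came from RIPCre+;Pcbp2Fl/Fl;Tdtomato mice, in which the rat insulin promoter (RIP) drives Cre, so that both deletion and labelling depend on an insulin promoter. Control cells gave 3 samples at 2.8 mM and 4 at 16.7 mM, and *Pcbp2* βKO cells gave 5 at each concentration. Total estimated counts ran from 47385513 (*Pcbp2* βKO at 2.8 mM, replicate 4) to 82419403 (*Pcbp2* βKO at 2.8 mM, replicate 5). Unless another scale is named, levels below are CPM (estimated counts relative to library size) after TMM scaling, which applies a factor per library that sets the bulk of genes to the same level.

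The knockout was checked first through *Pcbp2* itself. It stood at 63.4, 73.4 and 50.7 CPM in control cells at 2.8 mM and at 35, 45.4, 44.4 and 36.7 CPM at 16.7 mM. *Pcbp2* βKO cells held 19.2, 17.5, 16.8, 15.5 and 18.2 CPM at 2.8 mM and 10, 5.81, 6.39, 8.48 and 7.6 CPM at 16.7 mM. Every knockout sample lay under every control sample, with log2 differences of -1.84 ± 0.17 at 2.8 mM (SE, adjusted p = 3.57e-06) and -2.40 ± 0.16 at 16.7 mM (adjusted p = 7.49e-08). *Txnip*, a gene known to be induced by glucose, rose by 4.78 ± 0.37 on the log2 scale in control cells and by 4.22 ± 0.29 in *Pcbp2* βKO cells.

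Libraries at 16.7 mM did not all lie together. On the first principal component of all genes, which held 30% of the variance, control replicate 4 lay at 9.89 while the other control samples at 16.7 mM were at 97.1 or above. *Pcbp2* βKO replicates 4 and 5 lay at 21.3 and 33.3, with the others at 90.9 or above. These 3 libraries also held more RNA of PP cells than the rest of their groups. The summed share of the 4 markers of PP cells was 0.101% of counts in control replicate 4, against 0.0398%, 0.0406% and 0.032% in replicates 1 to 3. In *Pcbp2* βKO cells at 16.7 mM it was 0.123% and 0.14% in replicates 4 and 5, against 0.047%, 0.0637% and 0.041% in the rest. The share of delta cell markers was also the highest of their groups in these libraries. It was 0.0343% in control replicate 4, and 0.0447% and 0.0541% in *Pcbp2* βKO replicates 4 and 5. Macrophage markers were highest in the same *Pcbp2* βKO replicates of that group (0.0067% and 0.0106%). Counts of members are therefore given with and without these 3 libraries, a comparison chosen after the data had been seen.

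Respiratory chain transcripts were abundant. Per length, the median member stood at 171 TPM (the deposited unit corrected for transcript length) over the 17 samples, against 1.17 TPM for the median of all tested genes. *Ndufa1*, an X-linked accessory subunit of complex I, had the highest mean over all samples, 741 TPM, and was 50th among all tested genes by it. *Cox8a*, the smallest subunit of complex IV, followed at 718 TPM, *Atp5md*, a small membrane subunit of ATP synthase, at 587 TPM, and *Atp5b*, its catalytic β subunit, at 516 TPM. This order depended on glucose, since *Cox8a* led at 2.8 mM (989 TPM in control cells, with 569 TPM for *Ndufa1*) and *Ndufa1* at 16.7 mM (954 TPM in control cells, with 389 TPM for *Cox8a*). In complex III the highest mean TPM over all samples was that of *Uqcrb* (488 TPM), which helps to bind ubiquinone, but in control cells at 16.7 mM *Uqcrq* (409 TPM) and *Uqcr11* (373 TPM) were above it (347 TPM). Assembly factors were scarcer, with 50.1 TPM for *Ndufaf8*, the highest of them on this scale. Within complex II the TPM levels were 158 for *Sdha*, 151 for *Sdhd*, 141 for *Sdhb* and 34.9 for *Sdhc*.

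Where tissues use different isoforms of a subunit, these β cells mostly held the ubiquitous form. *Cox4i1* averaged 458 TPM and its lung isoform *Cox4i2* 0.0105 TPM. *Cox6b1* reached 330 TPM, while the testis isoform *Cox6b2* was at 0.423 TPM. *Cox7a2* stood at 264 TPM and the muscle isoform *Cox7a1* at 1.2 TPM. The isoform *Cox7b2* was at 0.106 TPM beside 106 TPM for *Cox7b*, and *Cox8b* and *Cox8c* were at 0.0447 and 0.00178 TPM beside *Cox8a*. *Ndufa4* had 294 TPM and its paralog *Ndufa4l2* 0.251 TPM. *Cox6a2*, the heart and muscle isoform, was the exception at 75.1 TPM, beside 334 TPM for *Cox6a1*. All 3 genes of subunit c, which forms the rotor ring of ATP synthase, were present, with 363 TPM for *Atp5g1*, 252 TPM for *Atp5g3* and 116 TPM for *Atp5g2*.

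How much the chain as a whole moved with glucose depended on the scale. *Ins1*, *Ins2* and *Iapp* together took 13.3%, 12.9% and 13.7% of counts in control cells at 2.8 mM and 39.2%, 36.4%, 31.5% and 27.1% at 16.7 mM. *Pcbp2* βKO cells gave these 3 genes 7.99% to 11.7% at 2.8 mM and 33.4% to 38.2% at 16.7 mM. As a share of all counts, members then made up 1.55%, 1.66% and 1.36% in control cells at 2.8 mM and 1.12%, 1.06%, 1.06% and 1.07% at 16.7 mM. Every sample at 16.7 mM was below every sample at 2.8 mM on that scale, in *Pcbp2* βKO cells as well, where the share was 1.64%, 1.66%, 1.58%, 1.6% and 1.7% at 2.8 mM and 1.03%, 1.02%, 1.06%, 1.05% and 1.04% at 16.7 mM.

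With *Ins1*, *Ins2* and *Iapp* taken out of the total, a scale chosen after the data had been seen, the outcome differed between TPM and counts. All groups overlapped on the TPM scale. Members were 3.84% ± 0.234 (SD, n = 3) of the remaining TPM in control cells at 2.8 mM and 3.88% ± 0.305 (SD, n = 4) at 16.7 mM. The values in *Pcbp2* βKO cells were 3.62% ± 0.225 (SD, n = 5) and 3.71% ± 0.348 (SD, n = 5). As a share of the remaining counts, control groups overlapped (1.58% to 1.91% at 2.8 mM and 1.46% to 1.84% at 16.7 mM), while *Pcbp2* βKO groups did not, with 1.73% to 1.92% at 2.8 mM and 1.56% to 1.71% at 16.7 mM. On the TMM scale the summed level was 14100, 15100 and 11600 CPM in control cells at 2.8 mM and 14900, 13000, 12400 and 10600 CPM at 16.7 mM. These groups overlapped, as did those of *Pcbp2* βKO cells, with 12300 to 14000 CPM at 2.8 mM and 10900 to 13100 CPM at 16.7 mM. RNA per cell was not measured, and in bulk samples fewer cells of a type and less RNA per cell cannot be told apart.

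**Figure D1:**
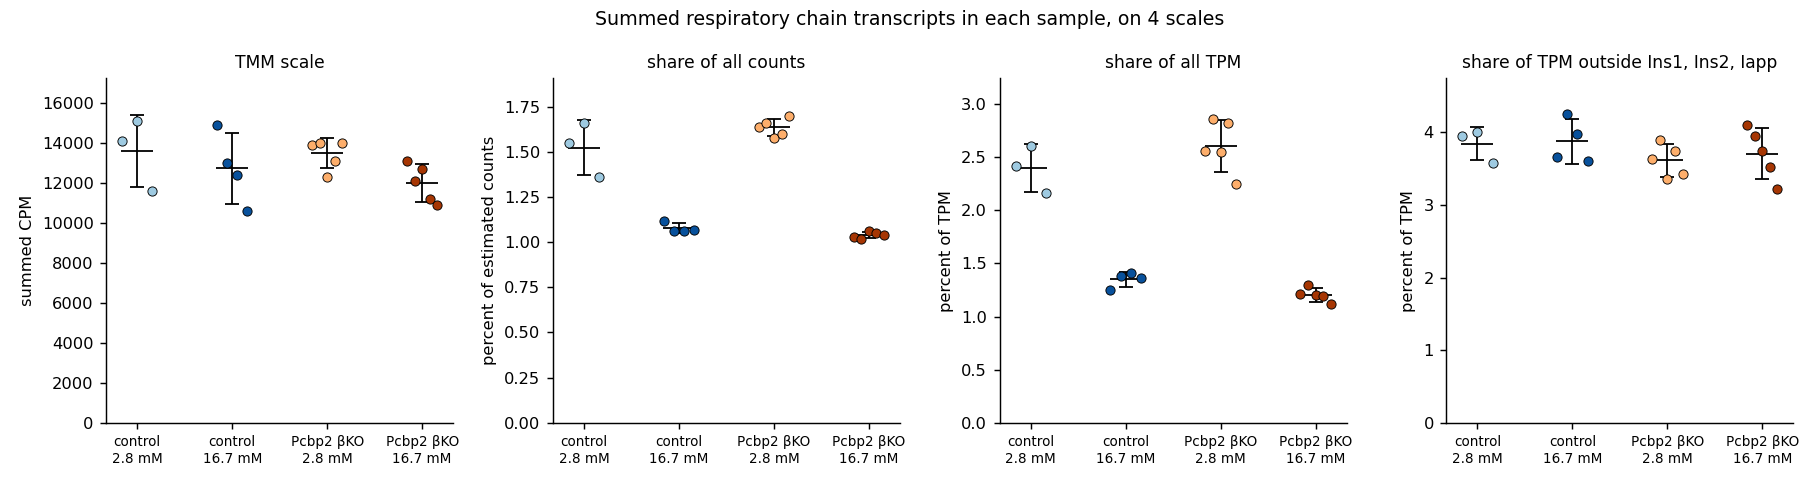
Summed level of the 96 member genes in each sample on 4 scales (CPM after TMM scaling, percent of estimated counts, percent of TPM, and percent of the TPM left without *Ins1*, *Ins2* and *Iapp*), with 1 point per sample, a bar at the mean and whiskers of 1 SD. Glucose groups separate fully as a share of all counts and of all TPM, and overlap on the TMM scale and as a share of the TPM outside the 3 hormone genes, though as a share of counts outside them those of *Pcbp2* βKO cells separate.

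The glucose comparison in control cells asks which genes respond to 72 h of high glucose. A gene was called when edgeR's quasi-likelihood test gave a Benjamini-Hochberg adjusted p under 0.05 and the fold change exceeded 1.5. Of the 96 members, 90 had enough counts to be tested, and *Cox4i2*, *Cox7b2*, *Cox8b*, *Cox8c*, *Ndufb11b* and the other *Atp5o* ID did not. In control cells 18 of 90 (20%) were called, 4 higher and 14 lower at 16.7 mM, while 13.9% of all 22762 tested genes were called (7.17% higher and 6.70% lower). The median log2 change was -0.10 for members and 0.04 for all genes, and members ran from -1.03 to 1.69. For 41 of the 90 members the 95% interval lay within a change of 1.5-fold in either direction.

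Other rules changed how members stood to all genes in control cells, above them by call and by adjusted p in this model but below them by overlap of samples and in a model with replicate as a block. With protein-coding transcripts alone, 17.8% of members and 18.2% of all genes were called in control cells, and 23.3% and 28.4% in *Pcbp2* βKO cells. By adjusted p alone these shares were 25.6% and 22.1% in control cells, and 50% and 38.2% in *Pcbp2* βKO cells. With all transcripts counted, adjusted p alone passed in control cells for 22 members (16% of all genes) and unadjusted p under 0.05 for 31 (29.3% of all genes). Samples of the 2 glucose groups did not overlap for 19 members (24.1% of all genes), of which 3 were higher (11.8% of all genes) and 16 lower (12.4% of all genes). Chance alone separates groups of this size for 5.71% of genes.

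The same comparison in *Pcbp2* βKO cells called 22 of 90 members (24.4%), 6 higher and 16 lower, beside 23.9% of all genes (13.4% higher and 10.4% lower). The share called was thus close to that of all genes, while 72.7% of the member calls and 43.7% of all calls were lower. Median changes were -0.13 for members and 0.01 for all genes. Adjusted p alone passed for 38 members (30.0% of all genes) and unadjusted p under 0.05 for 52 (39.7% of all genes). Glucose groups did not overlap for 38 members (21.6% of all genes), 10 of them higher (10.9% of all genes) and 28 lower (10.8% of all genes), where chance gives 0.794%. Without the 3 libraries that lay apart, 22 members were called in control cells (24.4%, beside 21.9% of all genes) and 25 in *Pcbp2* βKO cells (27.8%, beside 28.6% of all genes). Leaving out control replicate 2 at 2.8 mM alone brought the control count down to 12 (13.2%, beside 5.78% of all genes). Equal replicate numbers of control samples were correlated between glucose concentrations (0.198, 0.123 and 0.257), and a model of the 2 groups with replicate as a block used the samples whose numbers both groups have, which leaves out control replicate 4 at 16.7 mM. In it 22 members were called in control cells (24.4%, beside 29.3% of all genes) and 22 in *Pcbp2* βKO cells (24.4%, beside 27% of all genes). By adjusted p alone, 34.4% of members and 35.8% of all genes passed in control cells with this replicate block. In *Pcbp2* βKO cells these shares were 48.9% and 35.9%. The same samples without the block, a fit added after the data had been seen, gave 22 members in control cells (beside 23.7% of all genes) and the same gains and losses among them, and all samples of the 2 groups without a block gave 14 (15.6%, beside 12.8% of all genes).

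The numbers also depended on scale and unit. Total counts in place of TMM moved the median of all genes to -0.35 in control and -0.47 in *Pcbp2* βKO cells, and limma on log2 TPM, which changes unit, scaling and test together, to -0.24 and -0.33 with 1 added before logs and to -0.56 and -0.71 with 0.1 added. Relative to those medians, the members' median was -0.17 and -0.15 with total counts, -0.72 and -0.83 or -0.41 and -0.45 with TPM (1 or 0.1 added), and -0.14 and -0.15 with TMM. With edgeR on counts rebuilt from TPM and scaled by TMM, it was -0.19 and -0.14, and 18 and 21 members were called (13.1% and 22.9% of all genes). Log2 changes said below to be on the TPM scale are those of limma with 1 added. Member calls in control cells were 2 higher and 40 lower with total counts (21.3% of all genes were called, 83.8% of them lower) and 1 higher and 75 lower with TPM (30.6% of all genes, 96.4% of them lower). The split in *Pcbp2* βKO cells was 2 higher and 47 lower with total counts (34.5% of all genes, 81.1% of them lower) and 1 higher and 81 lower with TPM (38.8% of all genes, 96.1% of them lower). Lower calls were the majority on each scale, and the members given as higher below stand on the TMM scale.

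**Figure D2:**
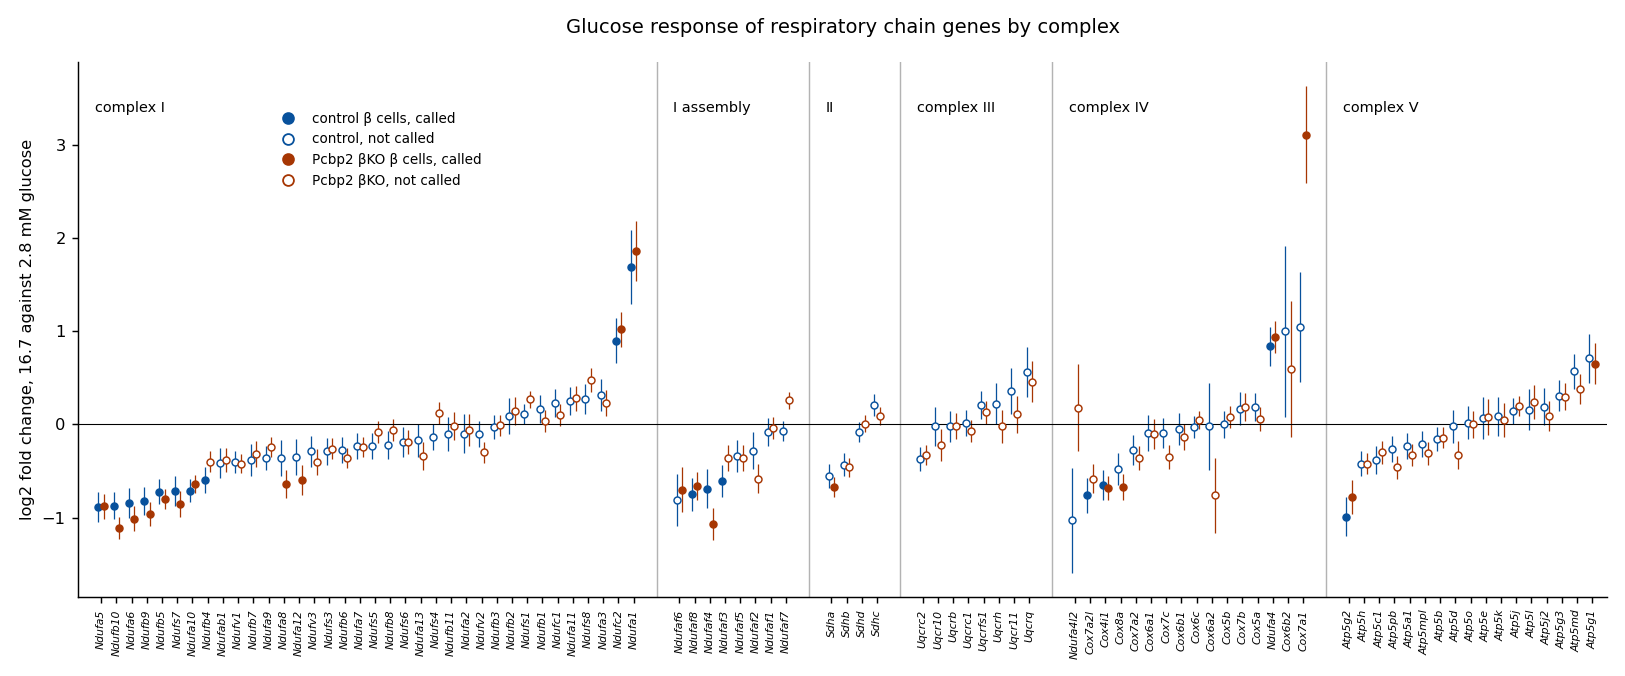
Log2 fold change from 2.8 to 16.7 mM glucose on the TMM scale for the tested members but 1, grouped by complex and ordered within it, in control (blue) and *Pcbp2* βKO (orange) β cells. Filled points were called, open points were not and whiskers are 1 SE. Most called members lie below 0, and the higher *Ndufa4* turns to -0.02 in control cells on the TPM scale.

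Complex I, the entry point for electrons from NADH, held most of the calls and also 37 of the 90 tested members. Of these 37 subunits, 3 rose and 8 fell in control cells, with a median log2 change of -0.23. In *Pcbp2* βKO cells 3 rose and 9 fell, with a median of -0.24. The shares called were 29.7% and 32.4%, beside 13.9% and 23.9% of all genes. Among the *Ndufaf* assembly factors the share was higher, at 37.5% in each genotype. *Ndufa5*, an accessory subunit of the arm that faces the matrix, stood at 85.4, 108 and 65.4 CPM in control cells at 2.8 mM and at 46, 42.1, 44 and 54.4 CPM at 16.7 mM. The *Pcbp2* βKO samples had 90.5, 85.6, 74.7, 84.6 and 88 CPM at 2.8 mM and 40.8, 39.1, 44.9, 51.8 and 53.7 CPM at 16.7 mM. Glucose groups were apart in both genotypes, and *Ndufa5* fell by 0.89 ± 0.16 on the log2 scale in control cells (adjusted p = 0.00182) and by 0.88 ± 0.13 in *Pcbp2* βKO cells (adjusted p = 0.00011).

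*Ndufb10*, an accessory subunit of the membrane arm, was at 182, 198 and 130 CPM in control cells at 2.8 mM and at 105, 85.4, 81.8 and 99.5 CPM at 16.7 mM. The knockout samples held 181, 191, 176, 172 and 199 CPM at 2.8 mM and 82.4, 76.5, 78.4, 96.3 and 90.5 CPM at 16.7 mM. Again no sample at 16.7 mM reached the lowest one at 2.8 mM, and the log2 changes were -0.87 ± 0.14 (adjusted p = 0.0011) and -1.11 ± 0.12 (adjusted p = 7.66e-06), the smallest adjusted p among members in each genotype. Other subunits that fell in both genotypes, named after their values had been seen, were *Ndufa6* (-0.84 and -1.01), which holds an acyl carrier protein, *Ndufb9* (-0.82 and -0.96), *Ndufb5* (-0.72 and -0.80), *Ndufa10* (-0.71 and -0.64) and *Ndufs7* (-0.71 and -0.85), whose iron-sulfur cluster passes electrons to ubiquinone. *Ndufb4* was called in control cells alone (-0.60 and -0.40), and *Ndufa8* (-0.36 and -0.64) and *Ndufa12* (-0.35 and -0.60) in *Pcbp2* βKO cells alone. The calls of *Ndufb5* and *Ndufs7* in control cells were lost without replicate 2 at 2.8 mM, when 12 members were called, and that of *Ndufb4* without this sample, without replicate 1 at 16.7 mM, with limma voom and with protein-coding transcripts alone. The *Ndufb4* call was also lost with the control groups fitted alone and with an offset for the trend with transcript length. The *Pcbp2* βKO calls of *Ndufa10*, *Ndufa8* and *Ndufa12* were lost without replicate 5 at 2.8 mM, when 18 members were called, and that of *Ndufa12* also without replicate 2 at 2.8 mM or replicate 3 or 5 at 16.7 mM, with limma voom and with the replicate block.

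Other complex I genes went up on the TMM scale. *Ndufa1* stood at 121, 120 and 116 CPM in control cells at 2.8 mM and at 447, 590, 339 and 163 CPM at 16.7 mM. Knockout samples had 114, 96.4, 89.9, 102 and 89.1 CPM at 2.8 mM and 518, 505, 399, 207 and 151 CPM at 16.7 mM. All samples at 16.7 mM were above those at 2.8 mM, and the 3 libraries that lay apart were the lowest of their groups. *Ndufa1* rose by 1.69 ± 0.40 on the log2 scale in control cells (adjusted p = 0.00857) and by 1.86 ± 0.32 in *Pcbp2* βKO cells (adjusted p = 0.000336), and without these libraries by 1.93 and 2.23. On the TPM scale its changes were 0.67 in control and 0.64 in *Pcbp2* βKO cells, and it was not called in either genotype.

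*Ndufc2*, an accessory subunit of the membrane arm, was also lowest in replicate 4 of the control samples at 16.7 mM, with 69.1, 86.7 and 55.1 CPM in control cells at 2.8 mM and 163, 155, 124 and 83.1 CPM at 16.7 mM. Control groups overlapped through replicate 4, while *Pcbp2* βKO samples were at 69.6 to 84.3 CPM at 2.8 mM and at 181, 168, 201, 110 and 118 CPM at 16.7 mM, without overlap. The changes were 0.90 ± 0.24 (adjusted p = 0.015) and 1.02 ± 0.19 (adjusted p = 0.000698). *Ndufc2* was likewise not called on the TPM scale, with means of 146 TPM at 2.8 mM and 150 TPM at 16.7 mM in control cells. In *Pcbp2* βKO cells its means were 179 and 172 TPM. Total counts lost the call of *Ndufc2* in both genotypes. Its control call was also lost without replicate 1 or replicate 3 at 2.8 mM, when 14 and 18 members were called.

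Assembly factors of complex I, which build the enzyme but are not part of it, fell or did not pass. Of the 8 tested, 3 fell and 0 rose in each genotype, with a median log2 change of -0.47 in both. *Ndufaf8*, which stabilises the assembly factor NDUFAF5, was at 30.7, 34 and 27.2 CPM in control cells at 2.8 mM and at 23.3, 16.9, 14.2 and 18.3 CPM at 16.7 mM. In knockout cells the values were 37.9, 29.3, 28.8, 27.5 and 30.9 CPM and then 19.8, 14.9, 17.4, 21.9 and 23.4 CPM. The glucose groups were apart in both genotypes, with changes of -0.75 ± 0.18 (adjusted p = 0.00929) and -0.66 ± 0.15 (adjusted p = 0.00263). Without control replicate 2 at 2.8 mM the control call was lost (-0.67, adjusted p = 0.0575), and without *Pcbp2* βKO replicate 1 at 2.8 mM or replicate 2 at 16.7 mM the change of -0.58 was just short of the fold required. With counts rebuilt from TPM the *Pcbp2* βKO change was -0.49, also short of that fold.

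*Ndufaf6*, needed early in assembly, had the lowest control value of the group at -0.81 ± 0.28 (adjusted p = 0.057) and was called in *Pcbp2* βKO cells at -0.70 ± 0.24 (adjusted p = 0.0314). Its control samples overlapped, with 20.9, 22.6 and 15.9 CPM at 2.8 mM and 10.3, 7.14, 9.64 and 18 CPM at 16.7 mM, where replicate 4 was the high one. Without the 3 libraries that lay apart it fell by 1.16 and 1.11 on the log2 scale, and in control cells with the replicate block by 1.14. Its *Pcbp2* βKO call was lost without any 1 of replicates 1, 2 and 4 at 2.8 mM or replicates 1, 2 and 3 at 16.7 mM, with an adjusted p of up to 0.0852. Counts rebuilt from TPM, tested with edgeR, lost this call as well (-0.60, adjusted p = 0.0634). *Ndufaf4* was called in both genotypes (-0.69 and -1.07) and its partner *Ndufaf3* in control cells alone (-0.61 and -0.36). Both control calls were lost without replicate 1 or replicate 2 at 2.8 mM or replicate 2 at 16.7 mM, when 14, 12 and 16 members were called, and each also without 1 further sample at 16.7 mM. With the control groups fitted alone both were lost as well. The *Ndufaf3* call was also lost with protein-coding transcripts alone and with an offset for the trend with transcript length. *Ndufaf7*, a methyltransferase, had -0.07 ± 0.11 in control cells and 0.26 ± 0.09 in *Pcbp2* βKO cells, neither called with TMM, and on the TPM scale it was called lower in both (-0.90 and -0.81).

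Complex II oxidises succinate and also belongs to the citric acid cycle, and of its subunits *Sdha* alone was called on the TMM scale, in *Pcbp2* βKO cells. *Sdha*, the flavoprotein, was at 666, 589 and 611 CPM in control cells at 2.8 mM and at 408, 393, 387 and 508 CPM at 16.7 mM. *Pcbp2* βKO cells had 631, 675, 593, 599 and 790 CPM at 2.8 mM and 420, 410, 375, 449 and 419 CPM at 16.7 mM. No sample at 16.7 mM reached those at 2.8 mM. *Sdha* fell by 0.67 ± 0.11 on the log2 scale in *Pcbp2* βKO cells (adjusted p = 0.000251) and was called, and the control change of -0.55 ± 0.13 (adjusted p = 0.00981) missed the fold required. It passed in control cells without replicate 2 at 2.8 mM (-0.59) or replicate 4 at 16.7 mM (-0.64), and with the replicate block (-0.66).

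*Sdhb*, the iron-sulfur subunit, had changes of -0.43 ± 0.12 (adjusted p = 0.0254) and -0.46 ± 0.10 (adjusted p = 0.00261), under the fold required. The membrane anchors were near 0 on the TMM scale, with 0.21 ± 0.12 and 0.09 ± 0.10 for *Sdhc* and -0.08 ± 0.11 and 0.01 ± 0.09 for *Sdhd*. *Sdhd* samples were at 187 to 213 CPM in control and 193 to 235 CPM in *Pcbp2* βKO cells over both glucose concentrations. On the TPM scale both anchors were called lower in *Pcbp2* βKO cells, at -0.97 for *Sdhc* and -1.01 for *Sdhd*, and *Sdhd* also in control cells (-0.88). *Sdha* (-1.33 in control cells) and *Sdhb* (-1.22 and -1.47) were called on that scale as well. Of the 4 subunits, 0 were called in control cells with edgeR on the TMM scale, 2 had an unadjusted p under 0.05, and DESeq2 and limma voom called 0.

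Complex III, which passes electrons from ubiquinol to cytochrome c, had 0 of 8 members called in either genotype with edgeR on the TMM scale, with 1 at an unadjusted p under 0.05 in each. DESeq2 and limma voom called 0 as well. TPM, in contrast, had 7 of the 8 called lower in control cells, all but *Uqcrq*, and all 8 in *Pcbp2* βKO cells. With TMM the median log2 changes were 0.12 in control and -0.02 in *Pcbp2* βKO cells, and the median half-widths of the 95% intervals were 0.40 and 0.33. *Uqcrc2*, a core protein, had the lowest control value, -0.37 ± 0.13 (adjusted p = 0.0558), and -0.33 ± 0.11 in *Pcbp2* βKO cells (adjusted p = 0.0222). *Uqcrb* was at 183, 250 and 170 CPM in control cells at 2.8 mM and at 182, 220, 226 and 163 CPM at 16.7 mM, a change of -0.02 ± 0.17, and on the TPM scale its changes were -0.87 and -1.07. *Uqcrq*, a small subunit, was the highest at 0.56 ± 0.27 (adjusted p = 0.183) and 0.46 ± 0.22 (adjusted p = 0.129). It was called higher without the 3 libraries that lay apart (0.73 and 0.66), in control cells also without replicate 4 alone (0.76) or with the replicate block (0.75), and lower in *Pcbp2* βKO cells on the TPM scale (-0.68). *Cyc1*, the cytochrome subunit of complex III that the symbol rule does not reach, had -0.45 ± 0.14 in control cells, short of the fold required, and fell by 0.76 ± 0.12 on the log2 scale in *Pcbp2* βKO cells (adjusted p = 0.000156).

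Complex IV, which reduces oxygen, had 1 member higher and 2 lower among 16 tested in control cells, and 2 higher and 2 lower in *Pcbp2* βKO cells, with medians of -0.04 and -0.03. *Cox4i1*, a subunit that joins early in assembly, was at 384, 429 and 289 CPM in control cells at 2.8 mM and at 295, 235, 215 and 193 CPM at 16.7 mM. Knockout samples held 361, 388, 339, 343 and 394 CPM at 2.8 mM and 250, 216, 250, 229 and 195 CPM at 16.7 mM. Control groups overlapped by a pair of samples and *Pcbp2* βKO groups did not. The changes were -0.65 ± 0.16 (adjusted p = 0.0101) and -0.68 ± 0.13 (adjusted p = 0.000811). The control call was lost without replicate 2 at 2.8 mM (-0.52) or replicate 4 at 16.7 mM (-0.55) and with the replicate block (-0.56). This call was also lost without the 3 libraries that lay apart (-0.58) and with the control groups fitted alone (-0.64, adjusted p = 0.0625).

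*Cox7a2l*, placed here with complex IV, was at 254, 252 and 273 CPM in control cells at 2.8 mM and at 142, 137, 170 and 166 CPM at 16.7 mM. Knockout cells held 212, 208, 214, 211 and 227 CPM and then 119, 107, 115, 158 and 217 CPM, where replicate 5 lay among the samples at 2.8 mM. *Cox7a2l* fell by 0.76 ± 0.19 on the log2 scale in control cells (adjusted p = 0.0112). Its *Pcbp2* βKO value of -0.58 ± 0.16 (adjusted p = 0.00883) was at the edge of the fold required, and passed it at -0.59 without replicate 1, 2 or 4 at 2.8 mM, at -0.62 without replicate 4 at 16.7 mM, at -0.78 without replicate 5 and at -0.64 with the replicate block. *Cox8a* was called in *Pcbp2* βKO cells (-0.67 ± 0.14, adjusted p = 0.00145) but not in control cells (-0.48 ± 0.17, adjusted p = 0.0598), where it passed without replicate 3 at 2.8 mM (-0.64) or replicate 1 at 16.7 mM (-0.66).

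*Ndufa4*, once listed with complex I, went up on the TMM scale. Its control samples were at 110, 116 and 119 CPM at 2.8 mM and at 237, 226, 241 and 120 CPM at 16.7 mM. The knockout samples had 102, 84.5, 94, 110 and 104 CPM and then 220, 196, 230, 140 and 161 CPM. Groups did not overlap, and the 3 libraries that lay apart were the lowest at 16.7 mM. The changes were 0.84 ± 0.21 (adjusted p = 0.0121) and 0.94 ± 0.17 (adjusted p = 0.000558). The control call was lost without replicate 1 (adjusted p = 0.0545) or replicate 2 (adjusted p = 0.055) at 2.8 mM. With total counts the changes were 0.42 in control and 0.44 in *Pcbp2* βKO cells, neither of them called. On the TPM scale the changes turned to -0.02 and -0.14.

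The muscle isoform *Cox7a1* was called in *Pcbp2* βKO cells at a low level, with 0.156, 0.0821, 0.0742, 0.052 and 0.02 CPM at 2.8 mM and 0.702, 0.514, 0.939, 0.924 and 0.321 CPM at 16.7 mM. These groups did not overlap, and *Cox7a1* rose by 3.11 ± 0.52 on the log2 scale (adjusted p = 0.000253), from estimated counts of 2 to 14 per sample to counts of 25 to 69. Its control change was 1.05 ± 0.59 (adjusted p = 0.251). Among the other isoforms, *Cox6a2* had -0.02 ± 0.47 in control and -0.76 ± 0.40 in *Pcbp2* βKO cells, *Cox6a1* -0.09 and -0.10, *Cox6b1* -0.05 and -0.13, *Cox6b2* 1.00 ± 0.92 and 0.60 ± 0.73, *Cox7a2* -0.27 and -0.36, *Cox7b* 0.17 and 0.19, and *Ndufa4l2* -1.03 ± 0.56 and 0.18 ± 0.47. None of these 7 was called on the TMM scale, and the wide errors of the scarce ones leave changes of more than 2-fold possible. On the TPM scale *Cox7b* (-0.60 and -0.82), *Cox6a1* (-0.96 and -1.15), *Cox6b1* (-0.89 and -1.16) and *Cox7a2* (-1.07 and -1.39) were called lower in both genotypes and *Cox6a2* (-1.93) in *Pcbp2* βKO cells, where the replicate block also called *Cox6a2* (-0.92).

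In complex V, which makes ATP, 1 of 17 tested members fell in control cells and 1 rose and 1 fell in *Pcbp2* βKO cells, with medians of 0.02 and 0.00. The 3 genes of subunit c encode the same mature protein. *Atp5g2* was at 76.3, 115 and 91 CPM in control cells at 2.8 mM and at 29.1, 56.6, 52.9 and 51.3 CPM at 16.7 mM. Knockout samples were at 102, 119, 86.5, 77.8 and 70.4 CPM and then at 54, 57.1, 53.4, 54.5 and 46.5 CPM. Groups were apart in both genotypes, and *Atp5g2* fell by 0.99 ± 0.21 (adjusted p = 0.00492) and 0.78 ± 0.18 (adjusted p = 0.00258) on the log2 scale.

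*Atp5g1* was at 199, 202 and 156 CPM in control cells at 2.8 mM and at 437, 304, 320 and 153 CPM at 16.7 mM. The knockout samples were at 150, 144, 145, 142 and 152 CPM and then at 268, 254, 298, 173 and 162 CPM. Control replicate 4 alone made the control groups overlap, and the *Pcbp2* βKO groups were apart. *Atp5g1* rose by 0.65 ± 0.22 on the log2 scale in *Pcbp2* βKO cells (adjusted p = 0.0278), a call lost without any 1 of replicates 2, 3 and 4 at 2.8 mM or replicates 1, 2 and 3 at 16.7 mM (adjusted p of up to 0.0837). Its control change of 0.71 ± 0.26 (adjusted p = 0.0745) passed without replicate 4 at 16.7 mM (0.95, adjusted p = 0.00392) and with the replicate block (0.92). On the TPM scale the *Pcbp2* βKO change was -0.40, and that of *Atp5g3*, 0.30 ± 0.14 on the TMM scale, was -0.74.

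*Atp5md* had 0.57 ± 0.19 (adjusted p = 0.0542) in control and 0.38 ± 0.16 in *Pcbp2* βKO cells. It was called higher in control cells without replicate 2 at 2.8 mM (0.75) or replicate 4 at 16.7 mM (0.76) and with the replicate block (0.75), and lower in *Pcbp2* βKO cells on the TPM scale (-0.68). *Atp5h*, subunit d of the stalk that holds the enzyme's head, had -0.42 ± 0.13 (adjusted p = 0.0346) and -0.42 ± 0.11 (adjusted p = 0.00646), under the fold required. The ATPase inhibitor *Atpif1*, whose symbol the rule does not reach, had 0.14 ± 0.13 and 0.22 ± 0.11, not called.

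**Figure D3:**
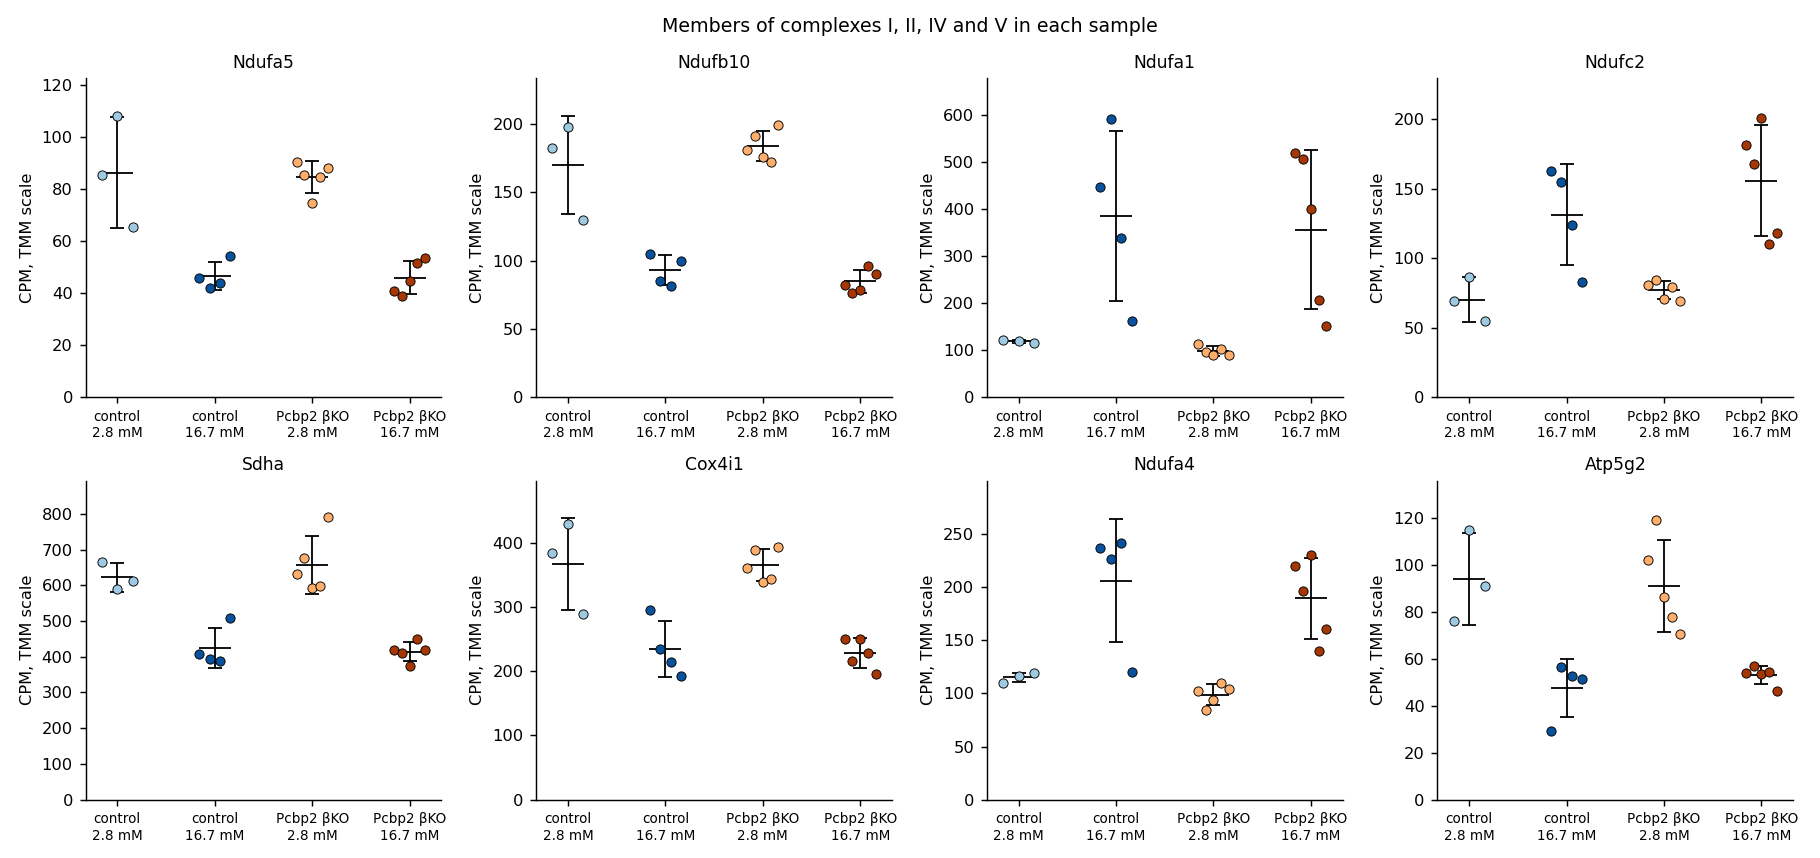
CPM on the TMM scale of 8 members in each sample, with 1 point per sample, a bar at the group mean and whiskers of 1 SD. *Ndufa5*, *Ndufb10*, *Sdha*, *Cox4i1* and *Atp5g2* are lower at 16.7 mM and *Ndufa1*, *Ndufc2* and *Ndufa4* higher in both genotypes. On the TPM scale *Ndufa4* turns lower (-0.02 and -0.14). The mean of *Ndufc2* in *Pcbp2* βKO cells goes from 179 TPM at 2.8 mM to 172 TPM at 16.7 mM. *Sdha* missed the fold required in control cells.

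The glucose responses of both genotypes, which share no samples, were alike in direction. Of the 18 members called in control cells, 15 (83.3%) were also called in *Pcbp2* βKO cells, which is 68.2% of the 22 called there, and all 15 had the same sign. Over all genes, 81.8% of the control calls and 47.5% of the *Pcbp2* βKO calls were shared. Across the 90 members the log2 changes had a Pearson r of 0.852 and a Spearman rho of 0.883, with the same sign for 82. Across all 22762 tested genes these were 0.683 and 0.679, with the same sign for 17597. These are descriptions across genes, which are not independent replicates. Members called in control cells alone were *Cox7a2l*, *Ndufaf3* and *Ndufb4*, and those called in *Pcbp2* βKO cells alone were *Atp5g1*, *Cox7a1*, *Cox8a*, *Ndufa12*, *Ndufa8*, *Ndufaf6* and *Sdha*. DESeq2 and limma voom called *Cox7a2l* in *Pcbp2* βKO cells and *Ndufaf6* in control cells as well. None of them passed the interaction test, so that neither a difference nor equality between genotypes is shown for them.

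The knockout comparisons ask what loss of PCBP2 does at each glucose concentration. At 2.8 mM, edgeR called 0 of 90 members, while 2.04% of all genes were called (0.255% higher and 1.78% lower), and 0 passed by adjusted p alone (2.12% of all genes). Unadjusted, 3 members had a p under 0.05 (12.9% of all genes). Without control replicate 3 at 2.8 mM that number was 8, and the share of all genes was not computed there. DESeq2 and limma voom called 0 members (4.25% and 2.08% of all genes). The smallest adjusted p was 0.209, for *Ndufs4*, an accessory subunit of complex I (-0.37 ± 0.13). The median log2 difference was -0.05 for members and 0.03 for all genes. For 69 members the 95% interval lay within 1.5-fold and for 85 within 2-fold, with a median half-width of 0.33. Genotypes did not overlap for 5 members (11% of all genes), 0 of them higher (4.07% of all genes) and all 5 lower in the knockout (6.89% of all genes), where chance gives 3.57%. They were *Ndufa1*, *Ndufaf7*, *Cox7a2l*, *Ndufa4* and *Atp5g1*.

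At 16.7 mM edgeR again called 0 of 90 members, beside 1.70% of all genes (0.290% higher and 1.41% lower), and 0 passed by adjusted p alone (1.81% of all genes). DESeq2 and limma voom called 0 members (3.2% and 1.41% of all genes). An unadjusted p under 0.05 was reached by 3 members (12.1% of all genes), among them *Ndufaf2* (-0.48 ± 0.17) and *Cox6a2* (-0.96 ± 0.42). That number was 19 without control replicate 4 at 16.7 mM and 14 on the TPM scale. The share of all genes at that threshold was not computed in these fits, so that a rise among members alone is not shown. Without control replicate 4, without the 3 libraries that lay apart and on the TPM scale, 1 member was called (1.11%, beside 2.87%, 2.63% and 0.835% of all genes). Of the members, 70 had an interval within 1.5-fold and 85 within 2-fold, and 3 did not overlap between genotypes (4.49% of all genes), 2 higher (1.85% of all genes) and 1 lower (2.64% of all genes), where chance gives 1.59%. The interaction between genotype and glucose called 0 of 90 members with edgeR (0.00439% of all genes). An unadjusted p under 0.05 was reached by 2 (4.58% of all genes), *Cox7a1* (2.06 ± 0.76) and *Ndufaf7* (0.33 ± 0.15). DESeq2 and limma voom called 0 members (0.141% and 0.00439% of all genes). Intervals of the interaction were wider, with a median half-width of 0.44 and 52 members within 1.5-fold.

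Markers of other islet cells were counted beside these results, and their part in them was not tested. The 9 tested alpha cell markers were called in 2 cases in control cells (2 higher) and in 6 in *Pcbp2* βKO cells (2 higher, 4 lower), and *Gcg*, the most abundant of them at 2380 TPM, fell by 2.92 on the log2 scale in *Pcbp2* βKO cells. Their summed share of counts in control cells was 0.0987%, 0.309% and 0.191% at 2.8 mM and 0.126%, 0.134%, 0.0624% and 0.178% at 16.7 mM. For *Pcbp2* βKO cells it was 0.217%, 0.826%, 0.297%, 1.18% and 0.68% and then 0.175%, 0.214%, 0.135%, 0.131% and 0.167%. Alpha cell RNA was thus highest in knockout samples at 2.8 mM, and control replicate 2 at 2.8 mM was the only sample of another group above any of them.

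For the 4 PP cell markers, 1 was called higher in control cells, and 2 were higher and 2 lower in *Pcbp2* βKO cells. The leading gene was *Ppy* at 3750 TPM. Their share was 0.128%, 0.122% and 0.142% in control cells at 2.8 mM, and 0.17%, 0.257%, 0.304%, 0.448% and 0.903% in *Pcbp2* βKO cells at 2.8 mM. All 5 knockout samples were above the control samples at this concentration. The 6 delta cell markers, led by *Sst* at 541 TPM, had 1 and 3 members lower, and their share was 0.0422%, 0.0276% and 0.0462% in control cells at 2.8 mM and 0.0185%, 0.0122%, 0.0187% and 0.0343% at 16.7 mM. The share in *Pcbp2* βKO cells was 0.0591%, 0.0574%, 0.107%, 0.147% and 0.161% and then 0.0271%, 0.017%, 0.0285%, 0.0447% and 0.0541%. As with PP cells, knockout samples at 2.8 mM were the highest.

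Of 7 macrophage markers, 1 was lower in control cells, and 6 were lower and 1 (*C1qa*, the most abundant at 42.4 TPM) higher in *Pcbp2* βKO cells. Their share was 0.0178%, 0.00948% and 0.015% in control cells at 2.8 mM and 0.00698%, 0.00315%, 0.00914% and 0.00825% at 16.7 mM. The knockout samples had 0.0197%, 0.00571%, 0.0157%, 0.0153% and 0.023% and then 0.00234%, 0.00182%, 0.003%, 0.0067% and 0.0106%. Macrophage RNA was lower at 16.7 mM in control cells without overlap, and in *Pcbp2* βKO cells with replicates 4 and 5 among the samples at 2.8 mM.

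Other lists were small or scarce. Acinar markers made up at most 0.0013% of counts in a sample, with *Try4* at 0 in all samples and *Try5* the most abundant at 3.51 TPM, and 0 of the 3 tested of 12 were called by edgeR in either glucose comparison, 0 of them at an unadjusted p under 0.05. Ductal markers took 0.0388% to 0.0977% and were led by *Krt7* at 85.8 TPM, with 1 of 6 higher in control cells. Endothelial markers took at most 0.00063% (*Esam*, 1.97 TPM), with 1 of 4 higher in *Pcbp2* βKO cells, and stellate markers at most 0.000232% (*Sparc*, 0.125 TPM), with 0 of 6 called by edgeR and 1 at an unadjusted p under 0.05 in control cells. β cell markers were led by *Ins2* at 423000 TPM, and 6 of 10 rose in control cells and 8 of 10 in *Pcbp2* βKO cells, on top of levels that fit sorted β cells.

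Genes that serve the chain outside the symbol rule moved to varying degrees on the TMM scale, on which all tests of them and of the lists that follow were made. Assembly factors of complexes II to V had 1 higher and 7 lower of 37 tested in control cells (41 were listed), with a median of -0.31, and 1 higher and 9 lower in *Pcbp2* βKO cells, with a median of -0.33. *Surf1*, which helps to build complex IV, fell by 0.89 and 1.09 on the log2 scale, *Sdhaf1*, which helps to load iron-sulfur clusters into SDHB, by 0.81 and 1.04, and *Uqcc2*, a complex III factor and the most abundant of the list at 450 TPM, by 0.80 and 0.84. *Ttc19* rose by 0.89 and 0.61. *Sco2*, which brings copper to complex IV, fell by 2.22 ± 0.36 in *Pcbp2* βKO cells and was lower in the knockout at 16.7 mM by -1.51 ± 0.37 (adjusted p = 0.045), the 1 gene of the list called in a knockout comparison. *Pet117* had 0 counts in all samples. Of 10 tested assembly factors of complex I outside the rule, led by *Tmem126a* at 80.6 TPM, *Dmac2* alone was called, at -0.74 and -0.79.

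In the list of cytochrome c and the ubiquinone pool, 1 gene was higher and 2 were lower of 19 in both genotypes. The enzymes of ubiquinone synthesis *Coq3* (by 0.76 and 1.00) and *Coq5* (by 0.89 and 1.02) fell in both, *Coq10b* rose in control cells (0.94) and *Gpd2*, the mitochondrial glycerol phosphate dehydrogenase, in *Pcbp2* βKO cells (0.83). The list's most abundant gene, *Etfb*, was at 92 TPM, and cytochrome c itself, *Cycs*, had 0.68 ± 0.28 and 0.47 ± 0.23 without a call. Of 15 citric acid cycle genes outside complex II, led by *Mdh2* at 218 TPM, 2 rose and 3 fell in control cells and 3 rose and 3 fell in *Pcbp2* βKO cells. *Fh1*, fumarase, rose by 1.87 and 1.57 and *Ogdh* by 0.93 and 0.97, while *Idh3b* (-1.08 and -1.10), *Idh2* (-1.04 and -1.02) and *Suclg2* (-1.16 and -0.96) fell, and *Pcx* rose by 0.61 in *Pcbp2* βKO cells.

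Carriers and channels of ATP, phosphate and protons had 2 higher and 3 lower of 10 in control cells and 2 higher and 2 lower in *Pcbp2* βKO cells. The uncoupling protein gene *Ucp2* rose by 1.63 and 1.99 and the ATP-phosphate carrier *Slc25a25* by 0.80 and 0.87. *Vdac1* (-1.88 and -1.18) and *Vdac2* (-0.80 and -0.87), outer membrane channels, fell in both, and *Vdac3* in control cells (-0.67). The most abundant carrier was *Slc25a5* at 381 TPM. Among 18 tested regulators of mitochondrial genes (19 were listed), 2 rose and 3 fell in control cells and 2 rose and 5 fell in *Pcbp2* βKO cells. *Nrf1*, the most abundant at 22.4 TPM, fell by 1.08 and 0.99 and *Gabpb1* by 0.71 and 1.01. *Tfam* fell in control cells (-0.63), and *Gabpa* (-0.66), *Yy1* (-0.68) and *Ppargc1b* (-1.29) in *Pcbp2* βKO cells. *Hcfc1* rose by 0.76 and 1.00, and *Perm1*, at 0.203 TPM, by 1.86 and 2.09.

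The 13 subunits encoded in mitochondrial DNA, which join the nuclear ones in complexes I, III, IV and V, were not called lower on the TMM scale. In control cells 1 of 13 was called, *mt-Nd4l* (0.74, adjusted p = 0.0499), with a median of 0.31. In *Pcbp2* βKO cells 8 of 13 rose, all of them complex I or III genes, from 0.77 for *mt-Nd1* to 1.11 for *mt-Nd4l*, with a median of 0.77. Their summed level was 17000, 18400 and 24300 CPM in control cells at 2.8 mM and 13400, 21000, 23000 and 19500 CPM at 16.7 mM. The knockout samples had 22700, 15800, 14900, 14500 and 9650 CPM and then 23800, 20600, 18200, 17800 and 18300 CPM. Both pairs of groups overlapped. As a share of TPM the sum went the other way in *Pcbp2* βKO cells, from a mean of 2.33% at 2.8 mM to 1.5% at 16.7 mM, and in control cells from 2.74% to 1.57%. As a share of counts it was 1.88% and 1.71% in *Pcbp2* βKO cells and 2.24% and 1.67% in control cells, and *mt-Co3* was the most abundant at 5650 TPM. The interaction called 0 of the 13 with edgeR, with 2 at an unadjusted p under 0.05.

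Ribosomal genes were counted for comparison. Of 78 mitochondrial ribosomal proteins 0 rose and 24 fell in control cells (median -0.37), and 1 rose and 21 fell in *Pcbp2* βKO cells (median -0.41). Of 94 tested cytosolic ribosomal proteins 72 fell in control cells (median -1.02), and 1 rose and 78 fell in *Pcbp2* βKO cells (median -1.18). The respiratory chain medians of -0.10 and -0.13 were nearer to 0 than both, and no test compared the lists.

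Single transcripts were tested with the same model, an addition made after the data had been seen. Of 378 member transcripts with enough counts, 35 from 29 genes were called in control cells, 10 higher and 25 lower (4.68% of all transcripts were called). In *Pcbp2* βKO cells 63 from 43 genes were called, 17 higher and 46 lower (13.8% of all). The knockout comparisons and the interaction called 0 member transcripts with edgeR, beside 0.504%, 0.392% and 0.00153% of all transcripts called by the same rule. An unadjusted p under 0.05 was reached by 20, 17 and 4 of the 378 member transcripts. The share of all transcripts at this unadjusted threshold was not computed, so that an excess among members is not shown. No other tool was run on transcripts.

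*Uqcr10*, a small subunit of complex III, had a transcript that fell without a call at the gene level. The processed transcript Uqcr10-203, which holds an extra exon of 86 bases, was at 32.3, 57.6 and 24.9 CPM in control cells at 2.8 mM and at 23.2, 15.3, 14.4 and 16.3 CPM at 16.7 mM. In *Pcbp2* βKO cells it was at 38.5, 55, 30.4, 36.7 and 65.5 CPM and then at 14.2, 13.9, 14.2, 16.5 and 20.4 CPM. Its groups were apart in both genotypes, and it fell by 1.15 ± 0.29 (adjusted p = 0.034) and 1.51 ± 0.25 (adjusted p = 0.000766) on the log2 scale. The coding Uqcr10-201 had 0.54 (adjusted p = 0.238) and 0.55 (adjusted p = 0.0806). The share without a coding annotation went from 46.1% to 22.8% of *Uqcr10* counts in control and from 53.4% to 22.6% in *Pcbp2* βKO cells.

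*Atp5j2*, a membrane subunit of ATP synthase, lost a transcript annotated for nonsense-mediated decay. Atp5j2-204 went from 9.85, 15.8 and 6.4 CPM to 0.517, 2.36, 0.577 and 3.09 CPM in control cells, without overlap, and fell by 2.70 ± 0.58 on the log2 scale (adjusted p = 0.0154). The knockout samples went from 12.7, 12.9, 6.83, 10.6 and 4.27 CPM to 0.979, 1.37, 1.3, 2.46 and 2.02 CPM, again without overlap. It fell by 2.54 ± 0.50 in *Pcbp2* βKO cells (adjusted p = 0.00266). The most abundant coding transcript, Atp5j2-202, had 0.26 ± 0.19 (adjusted p = 0.527) and 0.26 ± 0.16 (adjusted p = 0.335). Among 87 members with a mean of at least 5 CPM, the share without a coding annotation shifted by more than 10 points in 3 in control cells, among them *Atp5j2* and *Uqcr10*, and in 2 in *Pcbp2* βKO cells, among them *Uqcr10*.

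**Figure D4:**
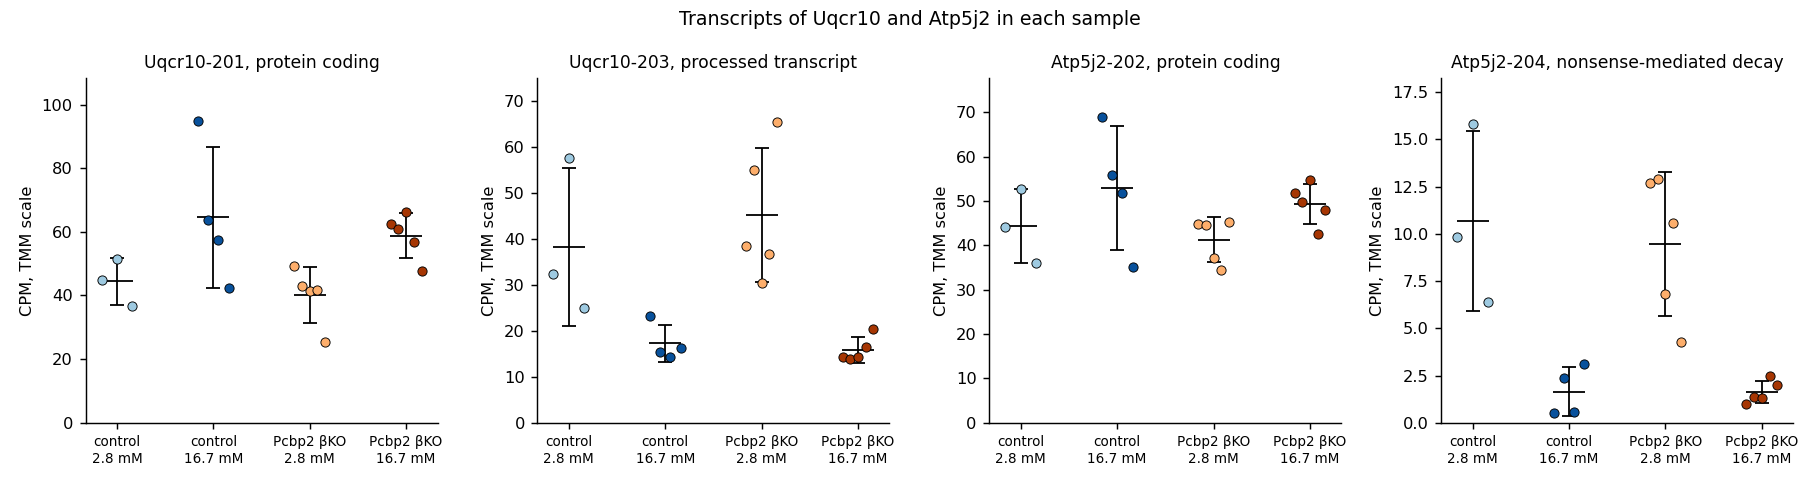
CPM on the TMM scale of a coding and another transcript of *Uqcr10* and of *Atp5j2* in each sample, with 1 point per sample, a bar at the group mean and whiskers of 1 SD. Uqcr10-203 and Atp5j2-204 are lower at 16.7 mM in both genotypes without overlap, and the coding Atp5j2-202 overlaps between glucose groups.

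Members shared features that the symbol rule did not use. They lie on 19 chromosomes (GRCm39), and their transcripts were short, with a median of 693 nt against 2130 nt for all tested genes. Exon bases of 64 members are also covered by another annotated gene, mostly on the opposite strand, which holds for 11 of the 18 members called in control cells and 13 of the 22 called in *Pcbp2* βKO cells, so that their counts are uncertain to that extent. *Ndufb10*, *Ndufa1*, *Ndufc2* and *Ndufa4* share none.

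Because several factors that bind promoters of respiratory genes moved with glucose, their motifs were looked for in the RefSeq promoters (GRCm38.p6, 250 bases before to 50 after the start), which held 78 of the 96 members. On either strand, GCATGCGC, the core of the NRF1 site, was present in 12 of 78 (15.4%) and in 3.05% of all 27025 promoters. CCGGAAG, bound by ETS factors such as GABP, was present in 19 (24.4%) and in 9.93% of all, and AAGATGGC, bound by YY1, in 11 (14.1%) and in 3.19% of all. At least 1 of the 3 was in 35 members (44.9%) and 14.9% of all promoters. Whether they differ between members that fell and others was not tested. Of 12 members lower in control cells that had a promoter, 3 held GCATGCGC, 1 CCGGAAG and 2 AAGATGGC, and of 3 that were higher, 0 held any of them.

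Windows around the matches in members that fell in control cells are shown 5′ to 3′, with the motif in capitals.
Ndufa6, chr15:82354356-82354385, minus strand: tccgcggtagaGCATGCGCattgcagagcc
Atp5g2, chr15:102671069-102671098, minus strand: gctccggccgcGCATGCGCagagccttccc
Ndufaf4, chr4:24897961-24897990, plus strand: cagatgtctgcGCATGCGCctgtgcggaag
Ndufaf8, chr11:120098915-120098943, plus strand: cgcgttcgactCCGGAAGaggcagggccc
Ndufaf8, chr11:120098933-120098962, plus strand: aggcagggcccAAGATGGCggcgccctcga
Ndufs7, chr10:80249462-80249491, plus strand: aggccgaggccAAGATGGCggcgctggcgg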

How the data were processed

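The authors' kallisto output was used as deposited, for 142376 transcripts of the mm39 mouse genome in 17 samples. The estimated counts are kallisto's assignments of read pairs to transcripts as made by the authors, and were summed here per gene ID and rounded. The TPM values are kallisto's length-corrected levels as deposited by the authors, and were summed per gene for levels between genes and for the TPM tests.

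Genes were tested with edgeR 4.0.16 (R 4.3.3) by quasi-likelihood F-tests in 1 model of 4 groups, with TMM scaling, filterByExpr and Benjamini-Hochberg adjustment over all 22762 tested genes of each comparison. Log2 changes are those of the edgeR fit at its default prior count, with standard errors derived from the change and its F statistic. A prior count of 2 was used for log2 CPM alone, as in the principal components and the correlation of samples. The study adjusted for batch, but batch levels are not given and were not modelled. DESeq2 1.42.0 and limma 3.58.1 were run as alternatives, the latter also on log2 of TPM with 1 or 0.1 added. Tables and figures used Python 3.11.15, pandas 2.3.3, numpy 2.4.6, scipy 1.17.1 and matplotlib 3.10.9. The code was tested on simulated data first.

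Whether equal replicate numbers belong together was checked by correlating samples after removing group means. Between control samples at 2.8 and 16.7 mM the 3 pairs gave 0.198, 0.123 and 0.257, so that a model with replicate as a block was run as an alternative. The other comparisons had at least 1 pair at 0.1 or under, but equal numbers were not without relation there. Between *Pcbp2* βKO samples at 2.8 and 16.7 mM, replicates 1 to 5 gave 0.0661, 0.172, 0.105, 0.075 and 0.193. Unequal numbers of these groups gave at most 0.0443. The block was therefore run in every comparison, while the main model has none.

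Members followed the symbol rule. Those described by name were the 4 subunits of complex II and, for complexes I, III, IV and V and the *Ndufaf* factors, the most abundant by TPM and, among those of at least 5 CPM, the 2 lowest and the highest log2 change in control cells. Isoform pairs, members called in a knockout comparison, *Atpif1*, and *Pcbp2* and *Txnip* as checks were added. Members and lists were chosen with earlier results of these data known. *Ndufc2*, *Ndufa6*, *Ndufb9*, *Ndufb5*, *Ndufb4*, *Ndufs7*, *Ndufa8*, *Ndufa10*, *Ndufa12*, *Ndufaf3*, *Ndufaf4*, *Uqcr10* and *Atp5j2* were described after their values had been seen. The results of 1 member by name are not reported here. The fit without 3 libraries, the fit of transcripts and the fit of the block's samples without a block were also chosen after seeing the data.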

Additional observations from a re-analysis of the deposited data

Results flagged for a closer look

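Named members and the sum of each complex were looked at within each group of 4 or 5 samples for a sample that stood apart by Dixon's ratio, which by chance would mark about 1 group in 20. It marked 4 of 108. *Ndufa4* was at 120 CPM in control replicate 4 at 16.7 mM, with the others of the group at 226 to 241 CPM. *Cox7b* was at 64.1 CPM in the same library, with the others at 99.5 to 102 CPM. *Ndufa4l2* was at 0.469 CPM in *Pcbp2* βKO replicate 4 at 16.7 mM, with the others at 0.0924 to 0.154 CPM. *Atp5h* was at 153 CPM in *Pcbp2* βKO replicate 3 at 16.7 mM, with the others at 140 to 143 CPM. All these samples were kept. Of the libraries involved, control replicate 4 and *Pcbp2* βKO replicate 4 also lay apart on the first principal component.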

How the results depend on the processing

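With total counts 42 members were called in control cells and 49 in *Pcbp2* βKO cells (21.3% and 34.5% of all genes). On the TPM scale the numbers were 76 and 82 with 1 added before logs (30.6% and 38.8% of all genes), and 77 and 83 with 0.1 added (39.1% and 54.7% of all genes). Adjusted p without a fold requirement gave 38 in *Pcbp2* βKO cells. Counts rebuilt from TPM with edgeR and TMM gave 18 and 21, and DESeq2 size factors in edgeR 18 and 24. An offset for the trend with transcript length gave 17 and 21 (14.1% and 24.1% of all genes). With it *Ndufaf3* and *Ndufb4* were lost and *Sdha* gained in control cells, and *Ndufa12* was lost in *Pcbp2* βKO cells. DESeq2 called 19 and 24 (17.2% and 25.9% of all genes), and limma voom 18 and 22 (13.5% and 23.2% of all genes). The model with replicate block called 22 members in control cells (*Cox4i1* lost, and *Atp5g1*, *Atp5md*, *Ndufaf6*, *Sdha* and *Uqcrq* gained), 22 in *Pcbp2* βKO cells (29.3% and 27% of all genes) and 0 in the other comparisons. The same samples without the block gave the same gains and losses in control cells, so that these came with the samples used, control replicate 4 at 16.7 mM being left out.

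With 1 sample left out at a time, the number called ran from 12 to 22 in control cells (5.78% to 19.8% of all genes), from 18 to 24 in *Pcbp2* βKO cells (20.5% to 25.4% of all genes) and from 0 to 1 for the knockout at 16.7 mM (0.941% to 2.87% of all genes), and was 0 for the knockout at 2.8 mM and for the interaction. The median log2 change of members ran from -0.24 to -0.02 in control and from -0.17 to -0.10 in *Pcbp2* βKO cells. Of the 18 control calls, 9 held whichever sample was left out (among them *Ndufa1*, *Ndufa5*, *Ndufa6*, *Ndufa10*, *Ndufb9*, *Ndufb10*, *Cox7a2l* and *Atp5g2*), and of the 22 *Pcbp2* βKO calls, 15. For the knockout at 16.7 mM, 1 member was called on the TPM scale with 1 or 0.1 added, without control replicate 4 at 16.7 mM, and without the 3 libraries that lay apart.

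On the TPM scale some log2 changes turned from positive to negative. Values with 1 and with 0.1 added follow. In control cells *Ndufa4* had -0.02 and -0.02 and *Cox7b* -0.60 and -0.60. For *Pcbp2* βKO cells the values were -0.14 and -0.14 for *Ndufa4*, -0.82 and -0.83 for *Cox7b*, -0.97 and -0.99 for *Sdhc*, -1.01 and -1.01 for *Sdhd*, -0.74 and -0.75 for *Atp5g3*, -0.40 and -0.40 for *Atp5g1*, -0.68 and -0.68 for *Uqcrq*, -0.68 and -0.68 for *Atp5md* and -0.81 and -0.85 for *Ndufaf7*. With 0.1 added *Ndufa4l2* had -0.78. Means of other members that were higher with TMM were also lower at 16.7 mM in TPM. In control cells *Uqcrq* went from 536 to 409 TPM and *Sdhc* from 42 to 28.8 TPM, and in *Pcbp2* βKO cells *Ndufc2* went from 179 to 172 TPM. TPM is relative to all transcripts, including those of *Ins1*, *Ins2* and *Iapp*, but the cause was not tested. Estimated counts of the scarce isoform *Cox7a1* were 2 to 14 per sample in *Pcbp2* βKO cells at 2.8 mM.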
